A study of Mus musculus with 4 samples.

Results

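Procr, Lgr5, Lgr6, Tspan8, Bcl11b, Axin2, Prom1 and Aldh1a3 have each been put forward as a marker of stem or progenitor cells of the mammary gland. These 8 genes, out of 31053 in the deposited matrices, were chosen by name and followed through 4 single-cell libraries of mammary epithelial cells. The mice were of the FVB strain and all carried Tfap2c fl/fl together with Krt5-CreERT2, a Cre recombinase driven by the keratin 5 promoter and activated by 4-hydroxytamoxifen (4OHT), so the corn oil group carried the same alleles. They received daily corn oil (2 mice) or 4OHT (2 mice) from 4 weeks of age, for 5 days by 1 label and for a week by another, and the fourth mammary glands were taken at 9 weeks. Tfap2c encodes the transcription factor AP-2γ, and the study asked what its deletion in basal cells does to mammary stem cells.

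The mammary epithelium has an outer layer of contractile basal cells, which contains the cells that regenerate a gland on transplantation, and an inner luminal layer of progenitor and hormone-sensing cells. Several of the 8 genes belong to Wnt signalling, the pathway best known for maintaining stem cells in epithelia: Lgr5 and Lgr6 are receptors for R-spondins, which strengthen Wnt signals, Axin2 is an inhibitor that the pathway itself switches on, and Procr (the endothelial protein C receptor) was described in the mammary gland as a Wnt target. The others have different roles: Tspan8 is a membrane protein of the tetraspanin family, Bcl11b is a zinc-finger transcription factor, Prom1 (CD133) is a membrane glycoprotein, and Aldh1a3 makes retinoic acid and underlies much of the aldehyde dehydrogenase activity used to sort progenitors.

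Cells with at least 1000 UMIs (unique molecular identifiers, each standing for 1 captured RNA molecule) were assigned by raw UMIs of keratins and smooth muscle actin. Basal cells had at least 5 UMIs of Krt5, Krt14, Krt17 and Acta2 and more than 3 times the UMIs of Krt8, Krt18 and Krt19, and luminal cells the reverse. A luminal cell counted as hormone-sensing with at least 3 UMIs of Ly6d, Fxyd2 and Gpx3, if these outnumbered Wfdc18, Csn3 and Ltf, and otherwise as a progenitor. Corn oil replicates 1 and 2 and 4OHT replicates 1 and 2 gave, in that order, 1496, 1933, 1421 and 2178 basal cells, 1290, 1132, 1770 and 1437 luminal progenitors, and 151, 330, 240 and 447 hormone-sensing cells. The libraries held 3546 to 5545 barcodes and 17351950 to 22017878 UMIs, and any pair of them shared 18 to 36 barcodes. Genes the gates did not use followed the class names: 6 further basal genes (Trp63, Oxtr, Myh11, Mylk, Cnn1, Tagln) summed to between 3801 and 5036 CPM (UMIs of a gene per 1e+06 UMIs of the sum) in basal cells and to at most 238 CPM in luminal progenitors. Levels are UMI sums per class and library in CPM, and each mouse counts as 1 replicate.

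Tfap2c, the targeted gene, stood at 389, 285, 285 and 325 CPM in basal cells of the 4 libraries in the order above. The groups overlapped (exact two-sided permutation p = 0.667, n = 2 per group, smallest possible p = 0.333). The labels do not say which exons are floxed, so whether 3′ counts fall in the deleted part is not known here, and the direction of every treatment comparison rests on the labels alone.

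The 8 genes did not mark a common cell class. Procr, Lgr5, Bcl11b and Axin2 had their highest pooled level in basal cells (Procr in 3 of 4 libraries, the others in 4 of 4), Tspan8 and Aldh1a3 in luminal progenitors and Prom1 in hormone-sensing cells, while Lgr6 was detected at 2.25 to 5.56 CPM in both basal cells and luminal progenitors. In edgeR's quasi-likelihood test with the library as a block, 7 of the 8 genes passed the filter on low counts (Axin2 did not). Of these, 3 were higher and 2 lower in basal cells than in luminal progenitors, where 56.1% of 11135 genes passed (29.5% higher, 26.6% lower). Between basal and hormone-sensing cells all 7 passed, 5 higher and 2 lower in basal cells, where 59.8% of all genes passed (32.4% higher, 27.3% lower). Between hormone-sensing cells and luminal progenitors 1 gene was higher and 3 lower, where 46.4% of all genes passed (21.9% higher, 24.6% lower).

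**Figure D1:**
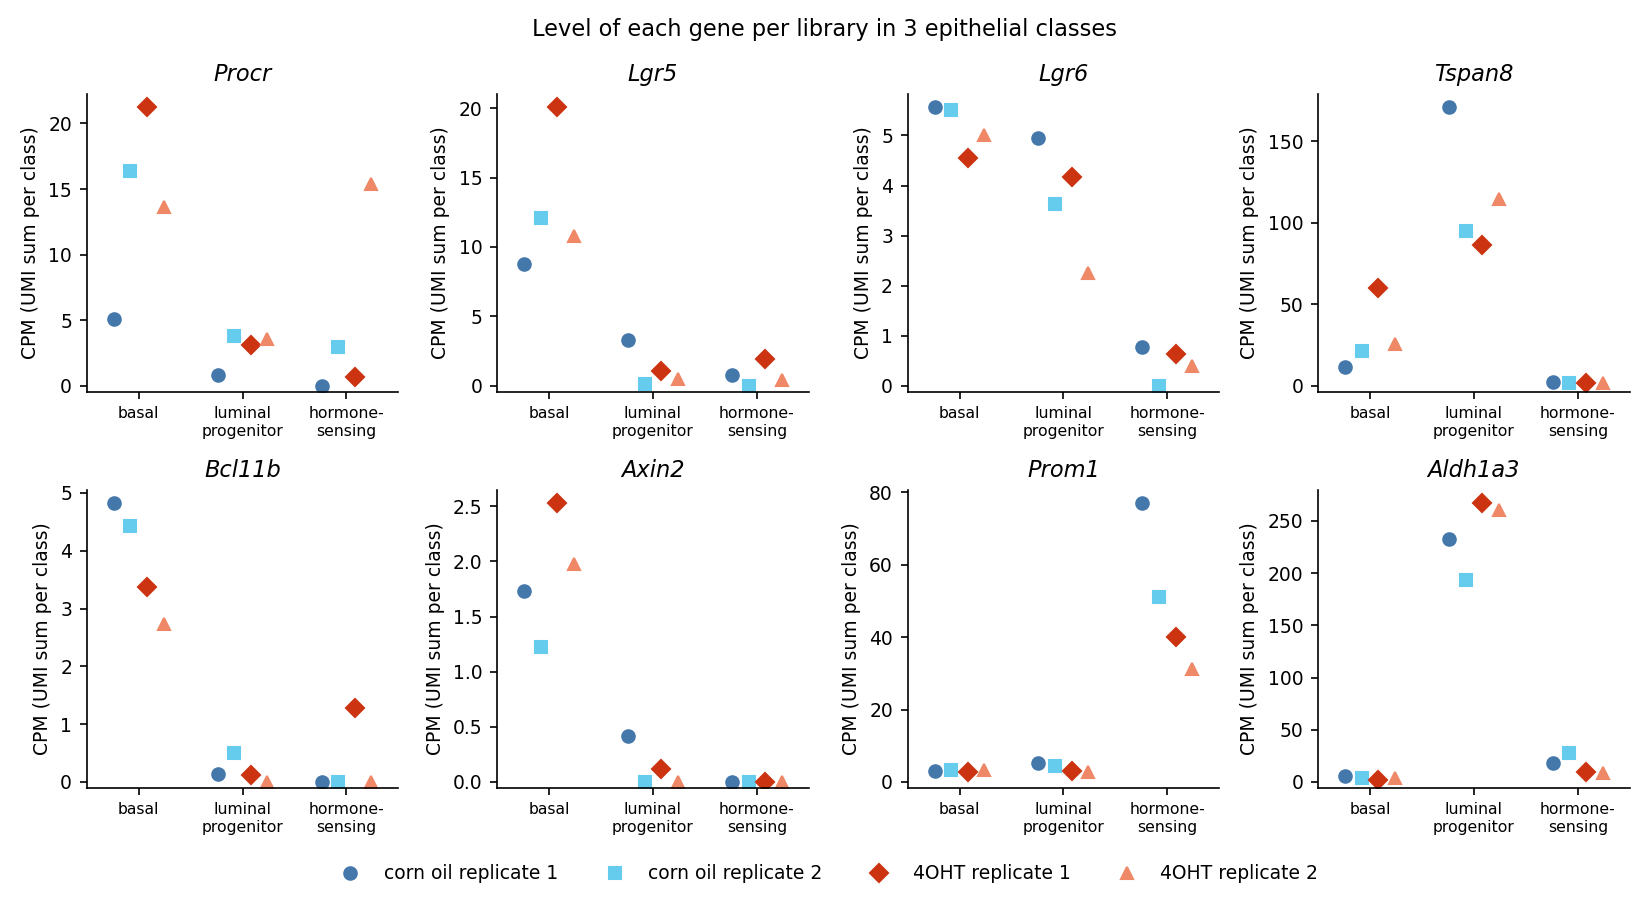
Level of each gene in CPM (y axis, UMI sum per class and library, each panel with its own scale from 0) in basal, luminal progenitor and hormone-sensing cells (x axis); each symbol is 1 library, corn oil-labelled in blue and 4OHT-labelled in red. Tspan8 reaches 171 CPM and Aldh1a3 267 CPM in luminal progenitors, Prom1 77.1 CPM in hormone-sensing cells, and the other 5 genes stay at or under 21.2 CPM.

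Among the Wnt-related genes, Lgr5 (ENSMUSG00000020140, chr10:115450311-115587780, minus strand, GRCm38, the build also called mm10) was measured at 8.77, 12.1, 20.04 and 10.8 CPM in basal cells. In luminal progenitors it was at 3.30, 0.165, 1.07 and 0.483 CPM, so the classes did not overlap. Basal cells were higher by 3.08 ± 0.46 (SE) on the log2 scale (edgeR adjusted p = 2.7e-05), in 4 of 4 libraries. Only 5 UMIs fell in hormone-sensing cells, a pooled ratio of 17.8 in favour of basal cells (95% interval 7.53 to 55.0, counting error only). Most positive basal cells held a single Lgr5 UMI: 54 of 62, 67 of 73, 84 of 100 and 47 of 58 in the 4 libraries.

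Lgr6 (ENSMUSG00000042793, chr1:134983301-135105276, minus strand), a close relative of Lgr5, had another distribution. It stood at 5.56, 5.51, 4.55 and 5.01 CPM in basal cells and at 4.95, 3.63, 4.17 and 2.25 CPM in luminal progenitors. The difference of 0.20 ± 0.26 (SE) on the log2 scale did not pass (edgeR adjusted p = 0.533). Hormone-sensing cells held 3 Lgr6 UMIs in all, 9.05 times less than luminal progenitors per UMI (95% interval 3.02 to 44.6, counting error only). Lgr6 was thus detected in both classes, whereas Lgr5 was largely basal.

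Axin2 (ENSMUSG00000000142, chr11:108920349-108950783, plus strand) was at the limit of detection. Basal cells held 14, 8, 15 and 13 UMIs (1.73, 1.22, 2.53 and 1.97 CPM), each in a different cell, and luminal progenitors held 4 in all. The pooled basal level was 12.9 times that of luminal progenitors (95% interval 4.72 to 49.0, counting error only). No Axin2 UMI was seen in 1168 hormone-sensing cells. Against an assumed 3 UMIs over that group the pooled basal level was 4.35-fold higher. The lower 95% bound of the pooled ratio at 0 UMIs was 3.41 (counting error only).

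Procr (ENSMUSG00000027611, chr2:155751117-155755471, plus strand) was measured at 5.07, 16.4, 21.2 and 13.7 CPM in basal cells and at 0.826, 3.80, 3.09 and 3.54 CPM in luminal progenitors. Hormone-sensing cells had 0, 2.94, 0.644 and 15.4 CPM, so 4OHT replicate 2 alone reached the basal range. Basal cells were higher than luminal progenitors by 2.11 ± 0.40 (SE) on the log2 scale (edgeR adjusted p = 0.000311), in 4 of 4 libraries. A few cells carried much of the signal: in 4OHT replicate 1 a single basal cell held 48 of the 126 UMIs (38.1%), and without the top cell of each library the basal levels were 4.20, 14.8, 13.2 and 10.0 CPM. In the other 3 basal libraries the top cell held 9.35% to 26.7% of the UMIs. For Lgr5, by comparison, no basal cell held more than 3 UMIs.

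Outside the epithelial gates, cells with endothelial or fibroblast markers had far more Procr, while all cells outside the gates together had 12.3 to 117 CPM. In cells with 3 or more endothelial markers (8, 81, 42 and 154 cells) the level was 586, 624, 1054 and 908 CPM, and 49.4% to 61.9% of them had a UMI. In cells with 3 or more fibroblast markers it was 218 CPM in corn oil replicate 2 (83 cells) and 341 CPM in 4OHT replicate 1 (24 cells), with 90.6 CPM in the 7 such cells of 4OHT replicate 2. Traces of such cells lay inside the epithelial gates too. Luminal progenitors with 3 or more non-epithelial markers numbered 2, 3, 4 and 7 in the 4 libraries and held 5 of 6, 12 of 23, 17 of 26 and 18 of 22 of the class's Procr UMIs. In hormone-sensing cells of 4OHT replicate 2, 8 such cells held 30 of 39 UMIs. After cells were thinned to 2000 UMIs, 13, 41, 24 and 31 basal cells had Procr in the 4 libraries. Of these few cells 4.17% to 9.68% carried 3 or more non-epithelial markers, counted before thinning, against at most 0.468% of the rest. Without all such cells, the difference between basal cells and luminal progenitors was 3.60 ± 0.34 (SE) on the log2 scale (edgeR adjusted p = 9.19e-08).

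**Figure D2:**
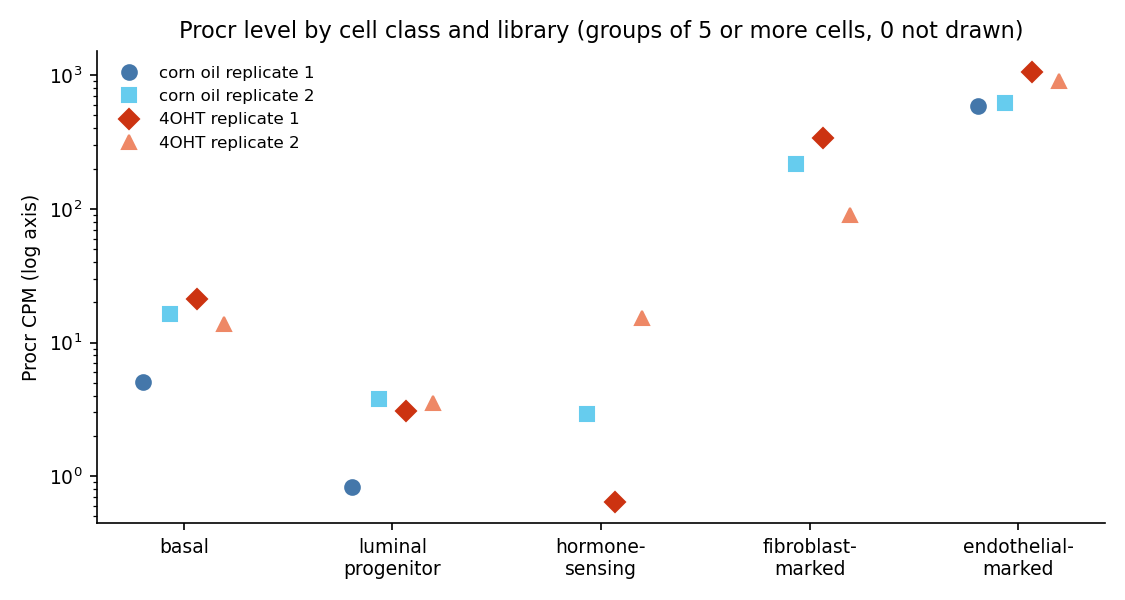
Procr level in CPM (y axis, logarithmic) in the 3 epithelial classes and in cells outside the gates with 3 or more fibroblast or endothelial markers (x axis); each symbol is 1 library, groups under 5 cells and values of 0 are left out. Endothelial-marked cells lie between 586 and 1054 CPM, basal cells between 5.07 and 21.2 CPM.

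The difference in Procr between basal and hormone-sensing cells was 1.49 ± 0.47 (SE) on the log2 scale (edgeR adjusted p = 0.0121). It did not pass without corn oil replicate 2 (1.26, adjusted p = 0.069) or without 4OHT replicate 1 (0.93, adjusted p = 0.0877). It was 3.38 (adjusted p = 4.94e-05) without 4OHT replicate 2 and 2.65 (adjusted p = 2.05e-05) without cells carrying 3 or more non-epithelial markers.

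Bcl11b (ENSMUSG00000048251, chr12:107910403-108003602, minus strand) was measured at 4.82, 4.44, 3.37 and 2.73 CPM in basal cells. Luminal progenitors held 1, 3, 1 and 0 UMIs. The basal level was higher by 4.02 ± 0.56 (SE) on the log2 scale (edgeR adjusted p = 1.46e-05), in 4 of 4 libraries. Hormone-sensing cells held 2 UMIs, both in 1 cell that also carried 3 or more non-epithelial markers, a pooled ratio of 13.8 in favour of basal cells (95% interval 3.74 to 116, counting error only). Bcl11b also appeared outside the epithelium, at 174 CPM in the 32 leukocyte-marked cells of 4OHT replicate 1, 9 of which had a UMI.

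RefSeq promoter entries (GRCm38.p6) matched 6 of the 8 genes, all but Lgr5 and Aldh1a3. Their 250 bases before the gene start were searched on both strands for the palindromic AP-2 motif GCCNNNGGC and for the TCF/LEF letters CTTTGATC and CTTTGTTC. The only match was an AP-2 motif in the entry of Bcl11b, shown here because AP-2γ is the targeted factor, with the motif in capitals (chr12:108003422-108003451, minus strand, its first base 27 bases before the RefSeq start, inside the gene as GENCODE M21 draws it):

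Bcl11b: aaaccggccaGCCAGCGGCgagcaacagca

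Of 32851 promoters of the same length, 13.7% held the AP-2 motif, 0.801% the first TCF/LEF sequence and 1.47% the second. A match describes the letters only, since no binding was measured.

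Tspan8 (ENSMUSG00000034127, chr10:115816832-115849893, plus strand) was above all a gene of luminal progenitors. Its level there was 171, 94.8, 86.2 and 114 CPM, against 11.9, 21.1, 59.8 and 25.8 CPM in basal cells and 1.77 to 2.31 CPM in hormone-sensing cells. Basal cells were lower than luminal progenitors by a log2 fold change of -2.39 ± 0.34 (SE; edgeR adjusted p = 1.53e-05) and higher than hormone-sensing cells by 3.78 ± 0.60 (SE; adjusted p = 4.4e-05), each in 4 of 4 libraries. The order luminal progenitor, basal, hormone-sensing held without overlap.

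Aldh1a3 (ENSMUSG00000015134, chr7:66390890-66427517, minus strand) was more strictly luminal. It stood at 233, 194, 267 and 260 CPM in luminal progenitors, at 17.7, 27.6, 9.66 and 8.27 CPM in hormone-sensing cells, and at 5.19, 4.13, 2.02 and 4.10 CPM in basal cells. Basal cells were lower than luminal progenitors by a log2 fold change of -6.23 ± 0.32 (SE; edgeR adjusted p = 1.47e-10). The ratio of Tspan8 to Aldh1a3 UMIs was 2.29, 5.11, 29.6 and 6.30 in basal cells and 0.733, 0.490, 0.323 and 0.439 in luminal progenitors of the same libraries.

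Prom1 (ENSMUSG00000029086, chr5:43993620-44102032, minus strand) was a gene of hormone-sensing cells, at 77.1, 51.2, 39.9 and 31.1 CPM. It was at 2.97, 3.36, 2.86 and 3.34 CPM in basal cells and at 5.23, 4.30, 3.09 and 2.74 CPM in luminal progenitors. Hormone-sensing cells exceeded luminal progenitors by 3.41 ± 0.22 (SE; edgeR adjusted p = 5.12e-09) and basal cells were lower than hormone-sensing cells by a log2 fold change of -3.95 ± 0.22 (SE; adjusted p = 4.3e-10). Basal cells and luminal progenitors did not differ past the threshold (-0.54 ± 0.25, SE, adjusted p = 0.078). That difference passed with the stricter gate of 10 times the other lineage (-1.02, adjusted p = 0.0397) and without 4OHT replicate 2 (-0.77, adjusted p = 0.0302).

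Overlapping transcripts limit some of these values. GENCODE M21 places A930009A15Rik opposite Lgr5, 4930422I22Rik opposite Tspan8, Gm11670 opposite Axin2 and Gm16401 opposite Prom1. Gm42716 overlaps Prom1 on the same strand, where counting by strand would not separate them. Whether counting used the strand is not given in the sources used here.

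Because a deeper cell shows more genes, shares of positive cells were compared after thinning every cell to 2000 UMIs. Shallower cells were left out, which kept 1462, 1750, 1310 and 1799 basal cells and 1248, 1098, 1630 and 1299 luminal progenitors. In basal cells Tspan8 was seen in 1.85%, 3.20%, 7.25% and 3.34% of cells, Lgr5 in 2.39%, 2.17%, 4.27% and 1.56%, and Procr in 0.889%, 2.34%, 1.83% and 1.72%. The 4OHT replicate 1 share of Tspan8 (95% Clopper-Pearson interval 5.91% to 8.79%) lay above the intervals of the other 3 libraries, whose highest bound was 4.27%. Without thinning the Tspan8 shares of basal cells were 4.75%, 4.55%, 10.98% and 5.05%, and those of Lgr5 4.14%, 3.78%, 7.04% and 2.66%. In hormone-sensing cells, which had Tspan8 at the lowest level, its share was 0% to 0.847%. In luminal progenitors Tspan8 was seen in 21.9%, 16.03%, 13.6% and 17.2% of cells and Aldh1a3 in 21.9%, 19.1%, 23.5% and 22.6%. Intervals and floors here cover counting error only.

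**Figure D3:**
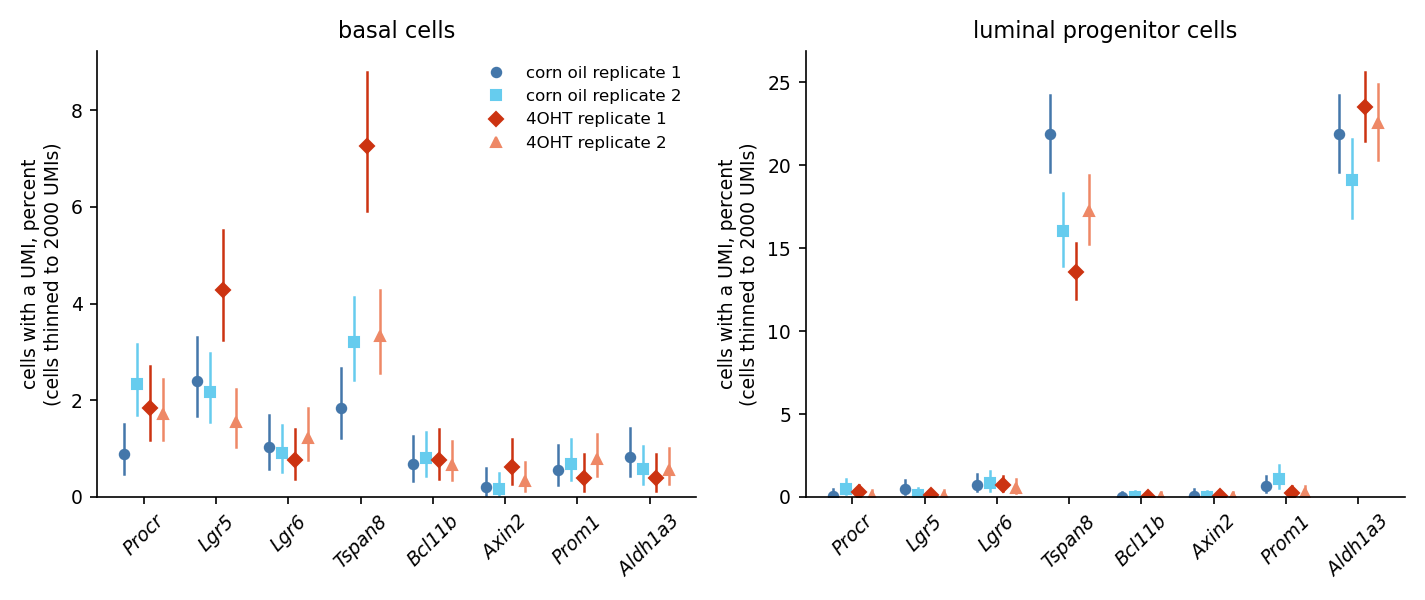
Percent of cells with at least 1 UMI of each gene (y axis, from 0) in basal cells (left) and luminal progenitors (right) after thinning each cell to 2000 UMIs; symbols are libraries and bars are 95% Clopper-Pearson intervals. Tspan8 in basal cells of 4OHT replicate 1 (7.25%) and the Tspan8 and Aldh1a3 shares of luminal progenitors (13.6% to 23.5%) stand out.

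Most basal cells had a UMI of none of the 8 genes: 8.07%, 9.89%, 14.9% and 9.56% had at least 1. Among luminal progenitors these shares were 40.4%, 33.3%, 34.4% and 36.3%. The 2 luminal markers were distributed over cells about as the product of their shares gives, with 201 of 5275 cells positive for both and 196 from the product. In basal cells Lgr5 and Tspan8 occurred together in 16 of 6321 cells, 2.33 times the product of their shares. By library there were 0, 7, 6 and 3 such cells, and without thinning 53 cells, 2.63 times the product. In luminal progenitors Lgr6 and Tspan8 occurred together in 14 cells, 2.24 times the product, and above it in 4 of 4 libraries. Of the 28 pairs none is given a p-value, since cells of a library are not replicates.

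What else distinguished Tspan8-positive luminal progenitors was tested by summing thinned cells with and without a Tspan8 UMI in each library (edgeR, library as a block). Of 6080 genes, 1238 passed (20.4%), 625 higher and 613 lower. S100g, a small calcium-binding protein, was at 168, 82.4, 131 and 172 CPM in Tspan8-positive cells and at 40.0, 6.51, 11.001 and 12.1 CPM in the rest, a log2 fold change of 2.92 ± 0.21 (SE; adjusted p = 2.05e-16), higher in 4 of 4 libraries. Tppp3 (2.17), the matrix proteoglycan gene Prelp (1.74), the alkaline phosphatase gene Alpl (1.72) and Gm26772 (1.72) were the next highest by log2 fold change. The fibrinogen chain gene Fgg (-3.30), the chemokine gene Ccl5 (-2.91), the macrophage growth factor gene Csf1 (-2.05), the heparin-binding growth factor gene Ptn (-1.92) and the gap junction gene Gja1 (-1.76) were lowest. Ccl5 stood at 42.1, 8.52, 9.05 and 4.46 CPM with Tspan8 and at 152, 135, 74.2 and 103 CPM without.

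Elf5, a transcription factor of luminal progenitors and milk-producing cells, was also higher in Tspan8-positive cells, at 253, 188, 224 and 306 CPM against 145, 89.5, 99.0 and 121 CPM (log2 fold change 0.96 ± 0.13, SE, edgeR adjusted p = 1.04e-07). Of 9 measured genes of retinoic acid handling, 4 were higher and none lower: Dhrs3 and Aldh2, enzymes of retinoid and aldehyde metabolism, the retinoic acid binding protein gene Crabp2, and the receptor gene Rarg. Their median log2 fold change was 0.50, beside 0.00 (0.00163) over all genes. Aldh1a3 itself was at 211, 213, 271 and 266 CPM with Tspan8 and at 252, 187, 246 and 271 CPM without. It did not pass (-0.13 ± 0.13, SE, edgeR adjusted p = 0.500). Of 23 genes that respond to cell preparation stress, such as Fos and Hspa1a, 16 were higher and 1 lower, with a median of 0.55. Hspa1a was at 5914, 3955, 5600 and 3134 CPM with Tspan8 and at 2779, 988, 1686 and 1330 CPM without. The part of preparation stress in the other differences was not tested.

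Luminal progenitors with and without an Aldh1a3 UMI were compared in the same way. Of 6047 genes, 295 passed (4.88%), 150 higher and 145 lower. The cyclooxygenase gene Ptgs2 was at 266, 69.0, 242 and 85.3 CPM with Aldh1a3 and at 73.8, 24.8, 90.2 and 11.9 CPM without (log2 fold change 1.73 ± 0.16, SE, edgeR adjusted p = 7.7e-08). The urokinase receptor gene Plaur (1.46), the placental growth factor gene Pgf (1.19), Krt7 (1.16) and Dmkn (1.12) were the next highest. AW112010 (-2.06), Ptn (-1.78), B930036N10Rik (-1.32), Hrct1 (-1.12) and the cyclin gene Ccnd3 (-0.96) were lowest. AW112010 was at 5.49, 9.52, 9.14 and 15.4 CPM with Aldh1a3 and at 8.21, 68.1, 27.7 and 71.6 CPM without. Of the 23 stress genes, 1 was higher and 3 lower, with a median log2 fold change of -0.10.

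The comparisons with and without Tspan8 and with and without Aldh1a3 use the same cells, so their values are set side by side and not tested against each other. Krt7, a luminal keratin, was lower with Tspan8 (-1.38) and higher with Aldh1a3 (1.16). Ptgs2 (-0.80 and 1.73), Plaur (-0.98 and 1.46), Pgf (-0.83 and 1.19) and Gja1 (-1.76 and 0.55) had the same opposite pair of signs, each past the threshold on both sides. Ptn, Fgg and B930036N10Rik were lower with either marker. For Ptn the size of the difference depended on the library. It was at 51.3, 28.4, 36.2 and 62.5 CPM with Tspan8 and at 60.5, 296, 81.6 and 308 CPM without. With Aldh1a3 it was at 42.1, 42.9, 47.0 and 66.6 CPM, and without at 63.1, 303, 84.2 and 324 CPM. The gap was thus widest in the replicate 2 libraries. S100g and Tppp3 differed with Tspan8 and had values of -0.19 and 0.00 (-0.000287) with Aldh1a3.

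**Figure D4:**
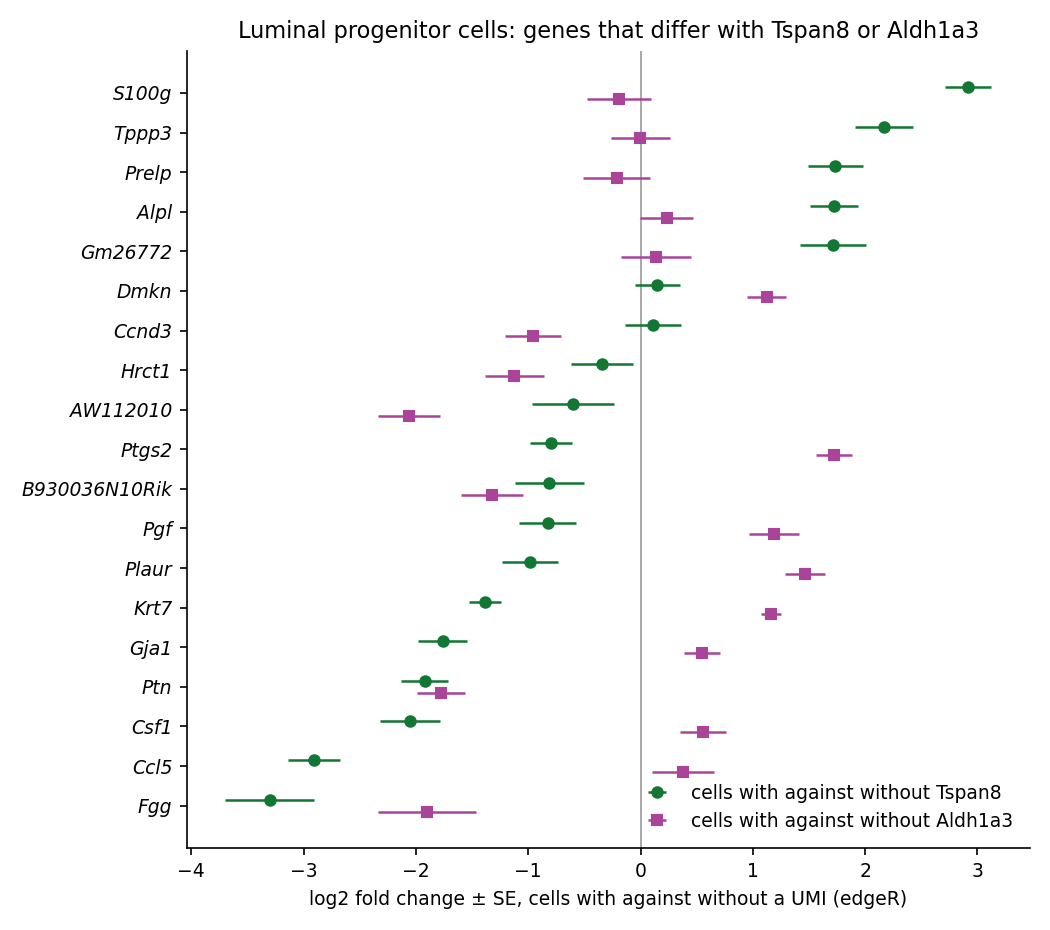
Log2 fold change ± SE (x axis; edgeR, 4 libraries) between luminal progenitors with and without a UMI of Tspan8 (green circles) or Aldh1a3 (purple squares), for the genes named from either comparison (y axis). S100g lies at 2.92 for Tspan8 and at -0.19 for Aldh1a3, while Krt7 lies at -1.38 and 1.16.

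Tspan8-positive basal cells (27, 56, 95 and 60 thinned cells) were compared in the same way, under a minimum of 20 positive cells per library that was lowered from 30 after the cell numbers were seen. Of 7003 genes, 177 passed (2.53%). The adhesion molecule gene Vcam1 was at 204, 241, 553 and 300 CPM with Tspan8 and at 65.9, 40.1, 166 and 73.6 CPM without (log2 fold change 1.87 ± 0.20, SE, edgeR adjusted p = 1.96e-17). Cd14 (2.19), Gm32219 (2.16), Has1 (1.94) and Clca3a1 (1.91) were the other leading genes, and Fam13a (-3.25), Susd6 (-2.16), Irf7 (-2.13), 1600014C10Rik (-2.10) and Mef2c (-2.10) the lowest. A limma test on the 4 within-library differences called 42 genes, all among the 177. Of the 10 genes named here it kept Vcam1 (adjusted p = 0.00247) and 1600014C10Rik (adjusted p = 0.0176). Among the 23 stress genes 4 were higher by edgeR and none by limma.

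Lgr5-positive basal cells (35, 38, 56 and 28 thinned cells) carried fewer UMIs of the targeted gene: Tfap2c stood at 214, 118, 71.4 and 179 CPM with Lgr5 and at 391, 302, 289 and 331 CPM without. The difference was lower in 4 of 4 libraries, -1.48 ± 0.26 (SE) on the log2 scale, where the median over all genes was -0.24 (edgeR adjusted p = 3.44e-06, limma on within-library differences 0.00849). The sums with Lgr5 are small, and 1 UMI in them stands for 8.93 to 17.9 CPM. Tspan8-positive basal cells also had less Tfap2c in 4 of 4 libraries, at 315, 179, 189 and 267 CPM against 388, 302, 287 and 331 CPM. That difference did not pass by edgeR. In the Lgr5 comparison 352 of 6921 genes passed (5.09%) by edgeR and 178 by limma, with 153 in common. Aldh1l2, a mitochondrial folate enzyme gene, was at 0 CPM in the 4 sums with Lgr5 and at 31.6 to 60.3 CPM without. In each of these small sums a 0 is near the limit of detection and does not show absence. Mat2b, Stc2, Cdh23 and Plod1 were the next lowest by fold change, and Bop1, Plce1, Apip, Stxbp6 and Rpf2 the highest, and of these 9 only Mat2b and Stc2 passed limma's threshold. In all 7 stress genes were higher by edgeR, Atf3, Egr1, Fos and Socs3 among them, and 1, Ier3, was lower. The part of preparation stress was not tested. None of the Lgr5-positive basal cells carried 3 or more non-epithelial markers, against 0.140% to 0.584% of the rest. A share that low cannot be told apart from 0 in so few cells.

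Between the 4OHT- and corn oil-labelled libraries, none of the 8 genes changed past the adjusted threshold in any class. In basal cells, where all 8 passed the filter, edgeR called 0 of 10788 genes (0%), 465 (4.31%) passed before adjustment (p under 0.05), and DESeq2 called 36. In luminal progenitors 0 of 10120 (0%) were called, 166 (1.64%) passed before adjustment, and DESeq2 called 1. In hormone-sensing cells edgeR and DESeq2 called 1 gene each, for edgeR Ctsr, a cathepsin gene (0.0132% of 7589), with 240 (3.16%) unadjusted. Of the members 5 were tested in luminal progenitors and 2 in hormone-sensing cells.

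Tspan8 in basal cells had the largest value of the 8, with 11.9 and 21.1 CPM under corn oil and 59.8 and 25.8 CPM under 4OHT. The groups did not overlap, which held for 5 of the 8 genes and for 30.7% of all genes in this class. The log2 fold change was 1.37 ± 0.45 (SE; edgeR unadjusted p = 0.0204, adjusted p = 0.999). It was 0.79 without 4OHT replicate 1, which had the highest level and most Tspan8-positive cells. It reached an adjusted p of 0.0499 only with no filter on low counts. In luminal progenitors the value was -0.31 ± 0.36 (SE). The difference between the effects in the 2 classes was 1.61 ± 0.60 (SE; unadjusted p = 0.0213, adjusted p = 1), where 0 of 11434 genes passed (0%; 429 genes, 3.75%, unadjusted; DESeq2 called 1). That adjusted p was 0.00104 with no filter on low counts. Over the 12 alternative settings, those with 1 mouse left out included, the Tspan8 difference of effects ran from 0.69 to 2.57, so its size depended on the setting. For Lgr5 the difference of effects was 1.64 ± 1.03 (SE; adjusted p = 1) and passed only without corn oil replicate 2 (2.89, adjusted p = 0.0173), while without corn oil replicate 1 it was -1.94. None of the 23 stress genes passed the adjusted threshold in basal cells, but 20 of them had a value above 0, with a median log2 fold change of 0.46 beside -0.02 for all genes, and Egr1 (1.24), Fos (1.22), Fosb (1.05), Zfp36 (1.06) and Nfkbia (0.87) had an unadjusted p under 0.05. Their part in the Tspan8 value was not tested.

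None of the other 7 genes had an unadjusted p under 0.05 in basal cells. Procr stood at 0.72 ± 0.55 and Lgr5 at 0.58 ± 0.36 (log2 fold change ± SE). Axin2 was at 0.63 ± 0.48 and Bcl11b at -0.56 ± 0.37, neither overlapping between groups in CPM, and Lgr6, also without overlap, was at -0.16 ± 0.35. Prom1 was at 0.03 ± 0.42 and Aldh1a3 at -0.52 ± 0.49, the latter without overlap. For Procr the 4OHT-labelled mean exceeded the corn oil-labelled mean by 6.73 CPM, a difference that includes the single 4OHT cell with 48 UMIs.

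In hormone-sensing cells Prom1 was at 77.1 and 51.2 CPM under corn oil and at 39.9 and 31.1 CPM under 4OHT, a log2 fold change of -0.88 ± 0.30 (SE; edgeR unadjusted p = 0.0163, adjusted p = 1). Aldh1a3 was at 17.7 and 27.6 CPM against 9.66 and 8.27 CPM, -1.41 ± 0.41 (SE; unadjusted p = 0.00697, adjusted p = 1). Neither gene overlapped between the groups, which held for 30.5% of all genes there. Fibroblast genes summed to 279, 87.6, 1389 and 289 CPM in the same sums, mostly Dcn (2.41 ± 0.79 on the log2 scale, edgeR unadjusted p = 0.0126), the stress gene Hspa1a was at 1.04 ± 0.26, and 4 of 8 pericyte genes were at 0. Without cells carrying 3 or more non-epithelial markers the 2 values were -0.87 and -1.38, and the part of stress genes was not tested.

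In luminal progenitors Aldh1a3 went the other way, from 233 and 194 CPM to 267 and 260 CPM, a log2 fold change of 0.40 ± 0.26 (SE; edgeR adjusted p = 1). Prom1 was at -0.62 ± 0.43, Lgr6 at -0.33 ± 0.47 and Procr at 0.65 ± 0.66. Aldh1a3 and Prom1, 2 of the 5 genes tested, did not overlap between groups, against 24.9% of all genes in this class. The difference of the Aldh1a3 effects between basal cells and luminal progenitors was -0.97 ± 0.38 (SE; unadjusted p = 0.0286, adjusted p = 1).

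**Figure D5:**
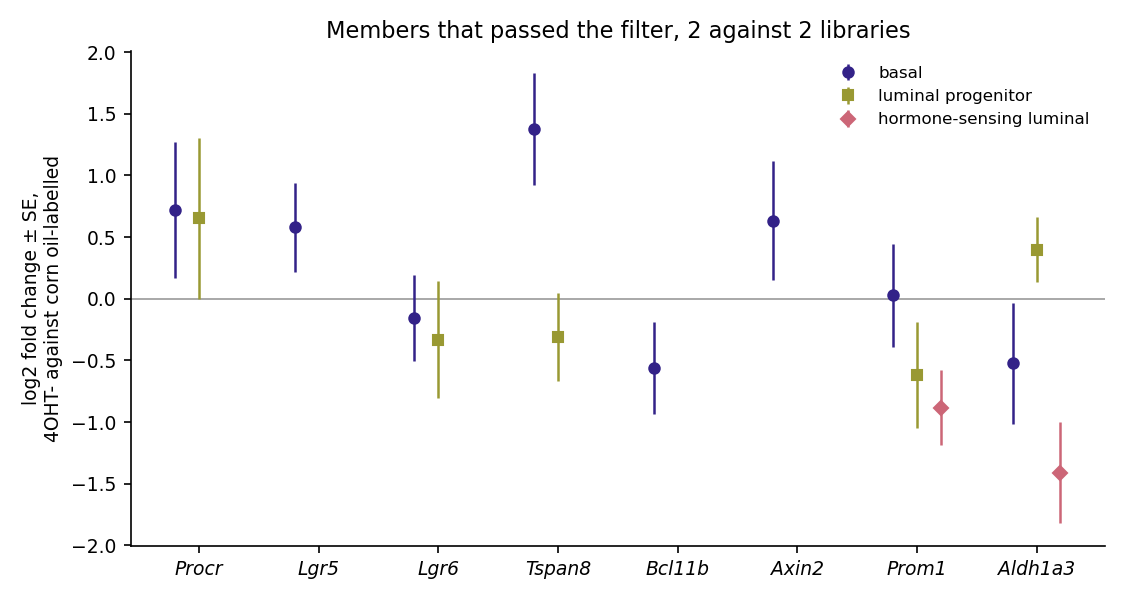
Log2 fold change ± SE between 4OHT- and corn oil-labelled libraries (y axis; edgeR, 2 against 2 libraries) for the members that passed the filter on low counts in basal cells (circles), luminal progenitors (squares) and hormone-sensing cells (diamonds). Tspan8 in basal cells (1.37) and Aldh1a3 in hormone-sensing cells (-1.41) are farthest from 0.

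The wider pathways were read through lists of genes that are no members. Of 35 Wnt and R-spondin genes 28 were measured, and 19 were higher and 5 lower in basal cells than in luminal progenitors, with a median log2 fold change of 1.88 beside 0.04 for all genes. The Wnt inhibitor gene Wif1 stood at 36.2 to 65.6 CPM in basal cells and at 0.413 to 1.07 CPM in luminal progenitors (5.79 ± 0.21, SE, edgeR adjusted p = 5.53e-12). The ligand gene Wnt10a (5.89), the feedback inhibitor gene Nkd1 (5.29) and the receptor gene Fzd7 (2.74) were higher too, and the ligand gene Wnt7b (-4.62) was lower. Under 4OHT none of the 28 was called in basal cells, and Wnt5b alone had an unadjusted p under 0.05 (-0.79 ± 0.24, SE, edgeR unadjusted p = 0.0158), at 39.3 and 38.7 CPM under corn oil and 23.2 and 20.6 CPM under 4OHT.

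Of 12 measured genes around retinoic acid, 5 were higher and 2 lower in basal cells than in luminal progenitors. Of all genes 56.1% passed there (29.5% higher, 26.6% lower). Crabp2, which binds retinoic acid, was lower (-3.50 ± 0.18, SE, edgeR adjusted p = 1.38e-10), as was Dhrs3 (-0.92). Of 21 other proposed stem or progenitor markers 7 were higher and 11 lower in basal cells, where 29.5% of all genes were higher and 26.6% lower. Snai2 (4.97), Trp63 (5.12) and Id4 (4.73) were higher, and Elf5 (-6.73) and Cd14 (-5.78) lower. Under 4OHT none of the retinoic acid or other marker genes was called in any class, and before adjustment Ly6a (-0.83 ± 0.26) and Dll1 (-1.04 ± 0.37) in basal cells and Nes (1.31 ± 0.45) in luminal progenitors had a p under 0.05 (log2 fold change ± SE, edgeR).

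Genes whose level followed each member most closely over the 12 sums of class and library were named by Pearson's r of log2(CPM + 1) among 6166 genes whose mean reached 10 CPM. The points share libraries and depth, so r is a description only. Axin2 and Bcl11b averaged 0.665 and 1.45 CPM over these sums, near the limit of detection. They had few UMIs outside basal cells, so their r rests largely on basal cells against the rest. Aldh1a3 was followed by Trim46 (r = 0.99), Ctsh and Ppp1r2, Prom1 by Lmo7 (r = 0.984), A830008E24Rik and Phyh, and Tspan8 by Ccrl2 (r = 0.982), Tubb2a and Tgfb2. Lgr5 was followed by Anxa6 (r = 0.976), Gem and Plat, Lgr6 by Nars (r = 0.977), Rusc2 and Asns, and Bcl11b by Dnajc3 (r = 0.974), Pde4a and Pgm2. For Axin2 the genes were Fto (r = 0.984), Ik and Gem, and for Procr Htra2 (r = 0.944), Clns1a and Tmem29.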

How the data were processed

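Single cells from 4 mice (2 per group) had been profiled by 10x 3′ sequencing. Per the labels and the submitters' processing notes, the authors used bcl2fastq, Cell Ranger 3.0.1 and the mm10 build; they deposited whole-number UMI counts for every gene and barcode, not normalized. Replicates are separate mice per the design text. The 8 members and the gene lists were chosen with earlier results of these data known.

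Cells with at least 1000 UMIs were classed by keratin UMIs, and counts were summed per library and class. Tests used edgeR 4.0.16 (quasi-likelihood, TMM, filterByExpr, Benjamini-Hochberg over all genes tested, threshold 0.05), with DESeq2 1.42.0 and limma 3.58.1 as alternatives, in R 4.3.3. The scripts were checked on simulated counts with an assumed spread, in which changed genes differed by 2 on the log2 scale. Recovery was 57%, 60% and 67.5% for treatment in basal, luminal progenitor and hormone-sensing cells. It was 21% for the difference of effects between basal cells and luminal progenitors, and 94.5% for the difference between these classes. For luminal progenitors with and without Tspan8 it was 82.5%. Class tests, and tests of cells with against cells without a UMI of a member (thinned to 2000 UMIs, at least 30 positive cells per library, the member left out), had the library as a block. No doublet caller was run; leaving out the 5% of cells with the most UMIs was an alternative. Shares have Clopper-Pearson intervals at 95%. Depth per library was 17351950 to 22017878 UMIs.

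Named genes were the 8 members; list genes past the threshold (at most 5 per list and comparison by smallest p, or those at an unadjusted p under 0.05 where none passed); in the tests of positive cells, the 5 largest and 5 smallest fold changes among passing genes whose mean reached 20 CPM and that had the same direction in 4 of 4 libraries; and, for each member, the 3 genes most like it. Tfap2c was added as the targeted gene. Elf5, Hspa1a, Atf3, Egr1, Fos, Socs3 and Ier3 in positive cells were named after their values were seen, as were the genes set side by side for Tspan8 and Aldh1a3. One list gene that this rule names is not reported here.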

Additional observations from a re-analysis of the deposited data

Results flagged for a closer look

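Aldh1a3 differed between the groups in opposite directions in different classes, with no overlap of the 2 libraries per group in any of the 3. None of these differences passed (edgeR adjusted p = 0.999 in basal cells and 1 in the others), and 30.7%, 24.9% and 30.5% of all genes did not overlap in basal, luminal progenitor and hormone-sensing cells. The 4OHT-labelled mean minus the corn oil-labelled mean was 50.4 CPM in luminal progenitors, -1.60 CPM in basal cells and -13.7 CPM in hormone-sensing cells. The difference between basal cells and luminal progenitors did not pass (log2 -0.97, edgeR adjusted p = 1); that between luminal progenitors and hormone-sensing cells was not tested. In hormone-sensing cells the values rest on 15 to 47 Aldh1a3 UMIs per library.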

How the results depend on the processing

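With 2 mice per group an exact permutation test cannot go below p = 0.333, and most members rest on few UMIs per library, so differences in Axin2, Bcl11b, Lgr6 and Prom1 outside their main class were close to the limit of detection. Counts of genes called between 4OHT- and corn oil-labelled libraries changed with the setting, and the cause was not tested. In basal cells (0 by edgeR) they were 36 by DESeq2, 93 without a filter on low counts and 17 to 127 when 1 mouse was left out. In luminal progenitors (0) they were 1 by DESeq2, 39 without the filter, 1 with the gate of 10 times the other lineage and 31 to 64 with 1 mouse left out. In hormone-sensing cells (1) they were 59 without the filter, 0 with cells of at least 2000 UMIs and 4 to 80 with 1 mouse left out. For the difference of effects between basal cells and luminal progenitors (0) they were 1 by DESeq2, 55 without the filter and 0 to 63 with 1 mouse left out. A lone remaining mouse was assumed to vary like the other group. Fits with the replicate number as a block (replicate block) called 167, 9 and 3 genes in basal, luminal progenitor and hormone-sensing cells; deviations of same-numbered mice correlated at 0.559, 0.317 and 0.220, but only 2 pairs exist and the labels do not tie the numbers to a litter or day. No member passed with the block.

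For cells with against cells without a member, the number of genes called was 169 to 214 for Aldh1a3 with 1 mouse left out, and 2337 without thinning and 777 to 1392 with 1 mouse left out for Tspan8 in luminal progenitors. For Lgr5 in basal cells it was 178 by limma, 534 without thinning, 70 with the stricter gate and 145 to 287 with 1 mouse left out. For Tspan8 in basal cells it was 42 by limma, 406 without thinning and 57 to 149 with 1 mouse left out, lowest without 4OHT replicate 1.

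None of the log2 fold changes that changed sign under a setting had passed the test as reported. Between treatments in basal cells, Lgr6 was 0.26 and Prom1 -0.090 with the stricter gate, and with 1 mouse left out they ran from -0.32 to 0.0053 and from -0.18 to 0.23. In luminal progenitors Procr was -0.024 with the stricter gate, and with 1 mouse left out Procr ran from -0.053 to 2.05 and Tspan8 from -0.69 to 0.23. In the difference of effects Procr was -0.018 by DESeq2, -0.00047 without the filter and -0.081 without the 5% of cells with the most UMIs; with 1 mouse left out Procr ran from -0.38 to 0.35, Lgr5 from -1.94 to 2.89 (passing without corn oil replicate 2, adjusted p = 0.0173), Lgr6 from -0.36 to 0.76 and Axin2 from -1.46 to 4.32. Between basal cells and luminal progenitors Lgr6 ran from -0.027 to 0.31 with 1 mouse left out. Between hormone-sensing cells and luminal progenitors Bcl11b was -2.86 without cells with 3 or more non-epithelial markers, and with 1 mouse left out Bcl11b ran from -3.29 to 1.63, Lgr5 from -2.01 to 0.056 and Procr from -1.20 to 0.97.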
